A study of Homo sapiens with 38 samples.

Results

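The CDK inhibitor genes were taken as the rows CDKN1A, CDKN1B, CDKN1C, CDKN2A, CDKN2B, CDKN2C and CDKN2D of every deposited count file. These are 7 of the 50652 genes listed in the BE2C files and 7 of the 50778 listed in the files of the other lines. The first 3 form the CIP/KIP family and the last 4 the INK4 family. All 7 were listed in every file and all 7 passed the filter on low counts in each of the fits, although CDKN2B did so in the palbociclib experiment only through the line NB1691.

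Progression through G1 depends on cyclin D with CDK4 or CDK6 and on cyclin E with CDK2, which phosphorylate the retinoblastoma protein RB1 and so release E2F transcription factors. INK4 proteins bind CDK4 and CDK6 and block cyclin D, whereas CIP/KIP proteins bind cyclin-CDK complexes more broadly, with CDK2 as a main target. CDKN1A is a classic p53 target, and the INK4A-ARF locus is a classic target of Polycomb silencing, the H3K27 methylation mark that KDM6 demethylases remove.

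RNA-seq was performed on neuroblastoma cell lines in 3 experiments that asked how the H3K27 demethylase KDM6B and the CDK4/6-RB-E2F pathway bear on transcription. BE2C cells received a control siRNA (siCtrl, 2 libraries) or 1 of 3 siRNAs labelled siKDM6B N1, N2 and N33 (1 library each) for 72 h, and separately GSK-J4, a small-molecule inhibitor of KDM6 demethylases, at 2.5 uM for 0, 24 or 48 h (2 libraries each). CHLA15 and CHLA20 were exposed to the CDK4/6 inhibitor palbociclib at 300 nM, and NB1643 and NB1691 at 3 uM, for 72 h, beside control cells labelled as given no treatment (2 libraries for each line and arm). Each line is 1 culture model, and the labels give neither a vehicle control nor untreated cells kept for 24 or 48 h, so the time in culture and GSK-J4 cannot be told apart. The labels do not say that libraries of a group came from separate cultures, so the p-values measure the spread between these libraries, which may be technical.

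The 27 libraries held between 36186567 and 93011010 counts on genes, and 3 counts corresponded to 0.0323 to 0.0829 CPM, which is the count scaled to a library of fixed total size. HAND2, GATA3, ISL1 and DBH, genes of the sympathetic lineage, stood at 9.86 CPM or more in all 27 libraries, while TH went down to 0.687 CPM. The markers of blood, endothelial, epithelial and liver cells summed to between 0.729 and 3.66 CPM. KDM6B itself stood at 6.47 to 8.76 CPM with siCtrl and at 7.11 to 8.98 CPM in the libraries labelled siKDM6B, so its mRNA was not lower there. MYCN, the oncogene that is amplified in part of neuroblastomas, averaged 3014 CPM in BE2C at 0 h, 3174 in untreated NB1643, 86.3 in untreated NB1691 and 2.29 and 3.14 in untreated CHLA15 and CHLA20. The neuroblastoma markers other than MYCN summed to 220.9 to 237.7 CPM in untreated NB1691, against 1583 CPM or more in the untreated libraries of CHLA15, CHLA20 and NB1643. The labels were kept, and the identity of the lines was not tested, which bears on every comparison with NB1691. Expression values are CPM after trimmed-mean scaling within each experiment. Levels set beside each other across experiments therefore come from separately scaled tables.

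The windows before the start of some of the genes show the letters that lie next to the reported changes. They come from RefSeq on GRCh38.p14 and span the 250 bases upstream of a start, 5′ to 3′, with any E-box (CACGTG) or GC box (GGGCGG, or CCGCCC on the other strand) in capitals. RefSeq windows matched 6 of the 7 genes (9 windows), and CDKN1C had none. CDKN1A is shown because it gained the most CPM in BE2C with GSK-J4, CDKN2C because it fell with both drugs, CDKN2D because its direction with palbociclib differed between lines, and CDKN2A because 2 separate starts, for ARF and for p16, feed the same gene-level count.
CDKN1A, chr6:36678464-36678713, plus strand: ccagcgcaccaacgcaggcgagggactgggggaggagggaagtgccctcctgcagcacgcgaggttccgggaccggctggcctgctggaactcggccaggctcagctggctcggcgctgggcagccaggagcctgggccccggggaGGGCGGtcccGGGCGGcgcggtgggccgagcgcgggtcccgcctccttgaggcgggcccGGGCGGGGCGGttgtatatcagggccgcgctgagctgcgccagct
CDKN2A at the ARF start, chr9:21995325-21995574, minus strand: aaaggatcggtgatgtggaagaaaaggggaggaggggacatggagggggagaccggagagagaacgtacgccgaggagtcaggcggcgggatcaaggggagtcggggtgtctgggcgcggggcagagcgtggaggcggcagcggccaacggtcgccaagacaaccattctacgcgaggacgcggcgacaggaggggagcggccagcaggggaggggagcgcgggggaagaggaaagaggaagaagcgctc
CDKN2A at the p16 start, chr9:21974858-21975107, minus strand: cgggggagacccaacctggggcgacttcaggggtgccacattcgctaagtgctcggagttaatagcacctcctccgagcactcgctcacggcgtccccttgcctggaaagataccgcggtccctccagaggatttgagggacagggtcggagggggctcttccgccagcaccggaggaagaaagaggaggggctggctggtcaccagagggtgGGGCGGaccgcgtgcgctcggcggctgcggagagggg
CDKN2C, chr1:50969995-50970244, plus strand: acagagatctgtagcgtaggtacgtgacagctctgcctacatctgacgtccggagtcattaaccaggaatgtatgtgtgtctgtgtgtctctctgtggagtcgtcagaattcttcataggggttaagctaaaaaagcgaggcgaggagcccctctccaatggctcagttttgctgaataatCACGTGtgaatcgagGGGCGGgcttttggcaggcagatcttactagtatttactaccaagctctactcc
CDKN2D, chr19:10568980-10569229, minus strand: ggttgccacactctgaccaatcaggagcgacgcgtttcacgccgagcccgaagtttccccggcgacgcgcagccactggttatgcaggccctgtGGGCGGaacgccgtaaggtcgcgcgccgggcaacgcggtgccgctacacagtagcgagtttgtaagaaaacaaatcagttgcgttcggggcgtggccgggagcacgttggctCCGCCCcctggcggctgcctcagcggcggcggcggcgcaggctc

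The CDKN1A window held 4 GC boxes, a pair of them overlapping, and the CDKN2D window held 2, 1 on each strand. The CDKN2C window shown held 1 E-box 69 bases before the start and 1 GC box, and the other CDKN2C windows held 1 E-box or 5 GC boxes. The ARF window held none of these letters and the p16 window 1 GC box. Across the 35116 windows of all genes, 42.6% held a GC box and 6.34% an E-box. An E2F site, searched on both strands as TTTCCCGC, TTTGGCGC, TTTCGCGC or TTTGCCGC, was present in 2.79% of all windows and in none of the 9 windows of these genes. Such matches describe letters in a window and not bound sites.

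On GRCh37, the build of the files, Gencode places CDKN1A at chr6:36644237-36655114 and CDKN1B at chr12:12838432-12875303, both on the plus strand, and CDKN1C at chr11:2904443-2907005 on the minus strand. CDKN2A at chr9:21967751-21995300 and CDKN2B at chr9:22002902-22009304 are neighbours on the minus strand. CDKN2C lies at chr1:51426417-51440306 on the plus strand and CDKN2D at chr19:10677136-10679735 on the minus strand. Exons of the antisense RNA CDKN2B-AS1 cover 593 of the 3885 exonic bases of CDKN2A, an unnamed gene covers 617 of the 3018 of CDKN2C and DINOL covers 146 of the 2996 of CDKN1A, each on the opposite strand. The sources used here do not state whether counting used strand, so reads over these bases may belong to either gene.

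Levels of the family before treatment differed widely between lines. Per kb of the canonical transcript, CDKN1B, the p27 inhibitor of cyclin-CDK2, was the highest member in untreated CHLA15 (113.7 CPM per kb) and CHLA20 (105.2). CDKN2C, the p18 inhibitor of CDK4 and CDK6, was highest in NB1643 (125.7), and CDKN2A was highest in NB1691 (225.7). In BE2C at 0 h CDKN2A (38.1 CPM per kb), CDKN1B (34.0) and CDKN2C (31.5) lay close together. These ranks, and the shares below, depend on the length chosen, since counts are per gene and the length is that of a single transcript. By mean CPM without division by length, CDKN1B exceeded CDKN2C in untreated NB1643 (164.5 against 125.1) and CDKN2A in BE2C at 0 h (82.0 against 37.3). In untreated NB1691 CDKN2A (220.7) still exceeded CDKN1A (179.5), and CDKN1B stayed highest in CHLA15 and CHLA20. CDKN1B made up 54.2% ± 0.226 (SD, n = 2) of the summed per-kb level of the 7 genes in CHLA15 and 12.7% ± 0.502 (SD, n = 2) in NB1691. The INK4 genes together made up 34.9% to 35.3% of that sum in untreated CHLA15, 39.3% to 40.6% in CHLA20, 58.8% to 61% in NB1643, 69.5% to 70.1% in NB1691 and 64.7% to 66.6% in BE2C at 0 h.

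**Figure D1:**
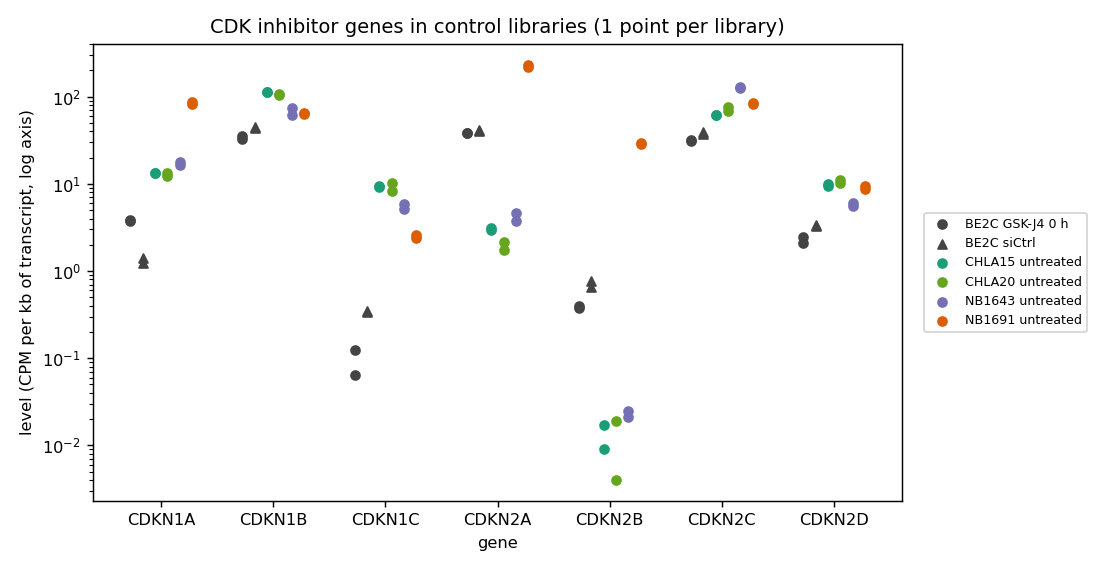
Level of each CDK inhibitor gene in the control libraries, in CPM per kb of canonical transcript on a log axis, with 1 point per library and the line given by colour. NB1691 stands apart at CDKN1A, CDKN2A and CDKN2B, while CHLA15, CHLA20 and NB1643 all lie at the bottom for CDKN2B.

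CDKN2A and CDKN2B, neighbours on chromosome 9 that encode p16 (with ARF) and p15, were abundant in untreated NB1691 and scarce in the other 3 lines of that experiment. CDKN2A read 214 and 227 CPM in NB1691, against 4.50 and 3.66 in NB1643, 2.90 and 3.01 in CHLA15 and 1.69 and 2.10 in CHLA20. NB1691 lay far above the others, which did not overlap each other either. The log2 difference was 5.74 ± 0.09 (SE) from NB1643 (adjusted p = 2.69e-20) and 6.23 ± 0.10 from CHLA15 (adjusted p = 1.81e-20). CHLA20 was lower than CHLA15 by the smaller log2 difference of -0.65 ± 0.14 (adjusted p = 0.00365), which went to -0.48 with an adjusted p of 0.052 when CHLA20 untreated replicate 1 was left out. CDKN2B had 7124 and 8334 counts in NB1691 (114 and 110 CPM), but 5 and 2 counts in CHLA15, 1 and 4 in CHLA20 and 6 and 5 in NB1643. The summed counts, divided by library totals without the trimmed-mean scaling used for CPM, put NB1691 above NB1643 954-fold. The exact Poisson interval at 95% was 533 to 1910 and covers counting error only. For the other lines at these counts no fold with palbociclib is given. In BE2C, CDKN2A read 37.4 and 37.2 CPM at 0 h and 40.4 and 39.4 with siCtrl, and CDKN2B 1.46 and 1.52 at 0 h and 2.54 and 2.99 with siCtrl. The methylthioadenosine phosphorylase gene MTAP, which lies beside CDKN2A, was expressed in all lines, with means of 40.9 CPM in untreated NB1691, 64.6 in CHLA15, 67.4 in CHLA20, 89.8 in NB1643 and 101.3 in BE2C at 0 h.

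CDKN1A, which encodes p21, was also highest in NB1691. It read 176 and 183 CPM there, 37.9 and 34.9 in NB1643, 28.3 and 27.9 in CHLA15 and 26.1 and 28.4 in CHLA20. NB1691 exceeded NB1643 by 2.30 ± 0.06 on the log2 scale (adjusted p = 2.15e-17) and NB1643 exceeded CHLA15 by 0.38 ± 0.06 (adjusted p = 1.97e-05). CHLA15 and CHLA20 differed by less than the spread between their libraries (log2 difference of CHLA20 from CHLA15 -0.04, 95% interval -0.17 to 0.08, adjusted p = 0.718). MDM2, the p53 antagonist and p53 target, stood at 6963 ± 86.7 CPM (SD, n = 2) in untreated NB1691, and between 61.6 and 78.5 CPM in the untreated libraries of the other 3 lines. CDK4, which INK4 proteins and palbociclib inhibit, was also higher in untreated NB1691. Its log2 difference was 4.68 from NB1643 (adjusted p = 6.84e-21), 4.48 from CHLA15 and 4.43 from CHLA20. CDK6 was lower, with log2 differences of -1.33, -0.78 and -0.97 in the same order. In BE2C CDKN1A was low, at 8.25 and 7.85 CPM at 0 h and 2.59 and 3.01 CPM with siCtrl.

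The remaining members ordered the lines in another way. CDKN1B read 276 and 272 CPM in untreated CHLA15, 251 and 257 in CHLA20, 150 and 179 in NB1643 and 155 and 151 in NB1691. Both CHLA lines lay above both NB lines, with adjusted p from 4.17e-10 to 6.26e-08 in the 4 pairs. NB1691 and NB1643 did not separate (log2 difference -0.10, 95% interval -0.24 to 0.03, adjusted p = 0.142), but the difference passed without NB1643 untreated replicate 1 (-0.30) and under upper-quartile scaling (-0.29). CDKN1C, which encodes p57, an imprinted gene, read 16.8 and 16.2 CPM in CHLA15, 14.6 and 18 in CHLA20, 10.4 and 9.24 in NB1643 and 4.62 and 4.28 in NB1691. The 2 CHLA lines overlapped and each further step down passed the test (NB1691 below NB1643 by a log2 difference of -1.15 ± 0.12, adjusted p = 8.27e-08). CDKN2C ran from NB1643 (124 and 127 CPM) through NB1691 (83.0 and 84.6) and CHLA20 (68.2 and 75.3) to CHLA15 (60.8 and 60.6). NB1691 was above CHLA20 by only 0.23 ± 0.06 (adjusted p = 0.0015), a call lost under upper-quartile scaling (0.11) and without CHLA20 untreated replicate 1 (0.085). CHLA20 was above CHLA15 by 0.24 ± 0.06 (adjusted p = 0.00972), a call lost when CHLA15 untreated replicate 1 or 2 (0.25 each) or CHLA20 untreated replicate 2 (0.17) was left out, or when these lines were fitted alone (0.24, adjusted p = 0.0686). CDKN2D, the p19 inhibitor of CDK4 and CDK6, was lowest in NB1643 (8.59 and 7.86 CPM), and stood at 12.6 and 13.6 in NB1691, 13.3 and 14.2 in CHLA15 and 14.6 and 16 in CHLA20. NB1691 fell below CHLA20 (log2 difference -0.22, adjusted p = 0.0169) but not without NB1691 untreated replicate 1 (-0.17, adjusted p = 0.148).

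Over the 6 pairs of untreated lines, most of the members with enough counts passed the test, as did much of the genome. CHLA20 and CHLA15 differed at 2 of 6 members, where 12.4% of all genes tested were called by edgeR. NB1643 differed from CHLA15 at 6 of 6 (64.6% of all genes) and from CHLA20 at 6 of 6 (64.5%). NB1691 differed from CHLA15 at 6 of 7 (78.0%), from CHLA20 at 7 of 7 (77.5%) and from NB1643 at 6 of 7 (80.7%), in each case with CDKN2B, which entered the fit through NB1691 alone, among the calls. Upper-quartile scaling moved the median log2 difference of all genes between NB1691 and NB1643 from 0.13 to -0.05, between NB1691 and CHLA15 from 0.08 to -0.03 and between NB1691 and CHLA20 from 0.10 to -0.0049, and differences of that size in these pairs depend on the scaling.

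**Figure D2:**
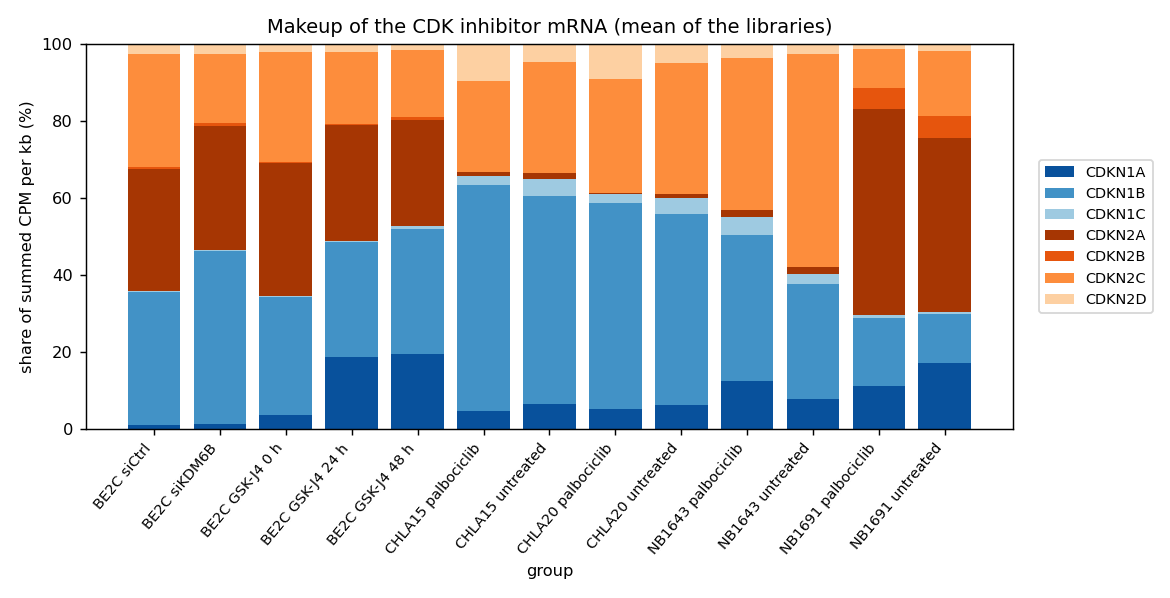
Share of each gene in the summed CPM per kb of the 7 CDK inhibitor genes (%), as the mean of the libraries of each group. CDKN1B fills 54.2% of the bar in untreated CHLA15 and CDKN2A 45.2% in untreated NB1691, and the CDKN1A segment of BE2C grows from 3.45% at 0 h to 19.4% at 48 h of GSK-J4.

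With GSK-J4 in BE2C, CDKN1A and CDKN1C rose, CDKN2C and CDKN2A fell and CDKN1B stayed within narrow limits. At 24 h 2 of the 7 members were higher and 2 lower than at 0 h, where 55.3% of all genes were called. At 48 h 3 were higher and 3 lower, where 71.5% of all genes were called. The median log2 change of the members was 0.10 at 24 h and 0.05 at 48 h, against 0.01 and 0.05 over all genes tested. In bulk RNA a change in the number of cells that express a gene and a change per cell cannot be told apart.

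CDKN1A read 8.25 and 7.85 CPM at 0 h, 42.9 and 46.9 at 24 h and 44.1 and 44.9 at 48 h. Both treated times lay above 0 h with no overlap, and 24 and 48 h overlapped. The rise was 5.58-fold at 24 h (log2 change 2.48 ± 0.07, adjusted p = 5.95e-33) and 5.52-fold at 48 h (2.47 ± 0.06, adjusted p = 1.31e-33), with a log2 change of -0.01 (95% interval -0.11 to 0.08) between them.

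CDKN1C was scarce, with 8 and 4 counts at 0 h, 27 and 31 at 24 h and 84 and 77 at 48 h, or 0.221 and 0.113, 0.569 and 0.659, and 1.30 and 1.56 CPM. The 3 times did not overlap and rose in order. It changed by 1.86 ± 0.44 on the log2 scale at 24 h (adjusted p = 0.00038) and 3.06 ± 0.37 at 48 h (adjusted p = 6.14e-10), and from 24 to 48 h it was 1.2 ± 0.26 (adjusted p = 0.000114). Its size rests on the handful of counts at 0 h.

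CDKN1B read 85.2 and 78.7 CPM at 0 h, 84.6 and 80.6 at 24 h and 84.7 and 84.6 at 48 h. All times overlapped. The 95% interval of its log2 change was -0.07 to 0.09 at 24 h and -0.03 to 0.12 at 48 h. Upper-quartile scaling, which moved the median of all genes at 48 h from 0.05 to 0.16, put CDKN1B at 0.16, level with that median. Under that scaling CDKN1B was called at 48 h (adjusted p = 0.000261) and from 24 to 48 h (0.098, adjusted p = 0.0211).

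Among the INK4 genes CDKN2C lost the most CPM, from 31.2 and 31.4 CPM at 0 h to 21.6 and 20.6 at 24 h and 18.4 and 19.2 at 48 h. The groups did not overlap. This was a log2 change of -0.57 ± 0.06 at 24 h (adjusted p = 4.38e-12) and -0.74 ± 0.06 at 48 h (adjusted p = 3.43e-16). CDKN2A read 37.4 and 37.2 CPM at 0 h, 33.6 and 33.4 at 24 h and 28.5 and 29.8 at 48 h, again without overlap. Its log2 change was -0.16 ± 0.05 at 24 h (adjusted p = 0.00671) and -0.36 ± 0.05 at 48 h (adjusted p = 1.32e-08), and the 24 h call was lost under upper-quartile scaling (-0.11, adjusted p = 0.0612).

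CDKN2B moved the other way from low counts. It read 1.46 and 1.52 CPM at 0 h, 2.36 and 1.77 at 24 h and 2.47 and 3.36 at 48 h, from 53 to 166 counts per library. The groups at 24 and 48 h both lay above 0 h. Its log2 change was 0.47 ± 0.21 at 24 h, which missed the threshold (adjusted p = 0.0513), and 0.95 ± 0.19 at 48 h (adjusted p = 2.28e-05). The 24 h change ran from 0.25 without BE2C GSK-J4 24 h replicate 1 to 0.67 without replicate 2. It was called under upper-quartile scaling (0.52, adjusted p = 0.0303), with no filter (0.47, adjusted p = 0.0413) and with these groups fitted alone (0.48, adjusted p = 0.0417). DESeq2 and limma-voom did not call it. CDKN2B-AS1, the antisense RNA of this locus, read 0.690 and 0.760 CPM at 0 h and 1.46 and 1.53 at 48 h (log2 change 1.04, adjusted p = 0.00038).

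CDKN2D read 2.98 and 3.52 CPM at 0 h, 4.0 and 2.96 at 24 h and 2.59 and 2.47 at 48 h. At 48 h both libraries lay below the 0 h values, while at 24 h 1 lay above and 1 just below them. The log2 change of -0.36 ± 0.16 at 48 h (adjusted p = 0.0413) was not called without BE2C GSK-J4 0 h replicate 2 (-0.24), 48 h replicate 1 (-0.40) or 48 h replicate 2 (-0.33), nor by DESeq2 (-0.39) or limma-voom (-0.35).

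Between 24 and 48 h 2 of the 7 members rose further and 3 fell, where 53.9% of all genes were called, 48.1% of them higher (58.1% higher under upper-quartile scaling). Besides CDKN1C and CDKN2A (-0.20 ± 0.05), these were CDKN2B (0.48 ± 0.17, adjusted p = 0.0138), CDKN2C (-0.17 ± 0.06, adjusted p = 0.0101) and CDKN2D (-0.46 ± 0.15, adjusted p = 0.0077). The calls of these last 3 each rested on single libraries and on the test or scaling. DESeq2 did not call CDKN2B (0.48, adjusted p = 0.1255) or CDKN2D (-0.47, adjusted p = 0.0619). Upper-quartile scaling did not call CDKN2C (-0.11, adjusted p = 0.108). CDKN2B was not called without 24 h replicate 2 (0.28) or 48 h replicate 2 (0.25), CDKN2C without 24 h replicate 1 or 48 h replicate 1 (-0.14 each), and CDKN2D without 24 h replicate 1 (-0.23).

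**Figure D3:**
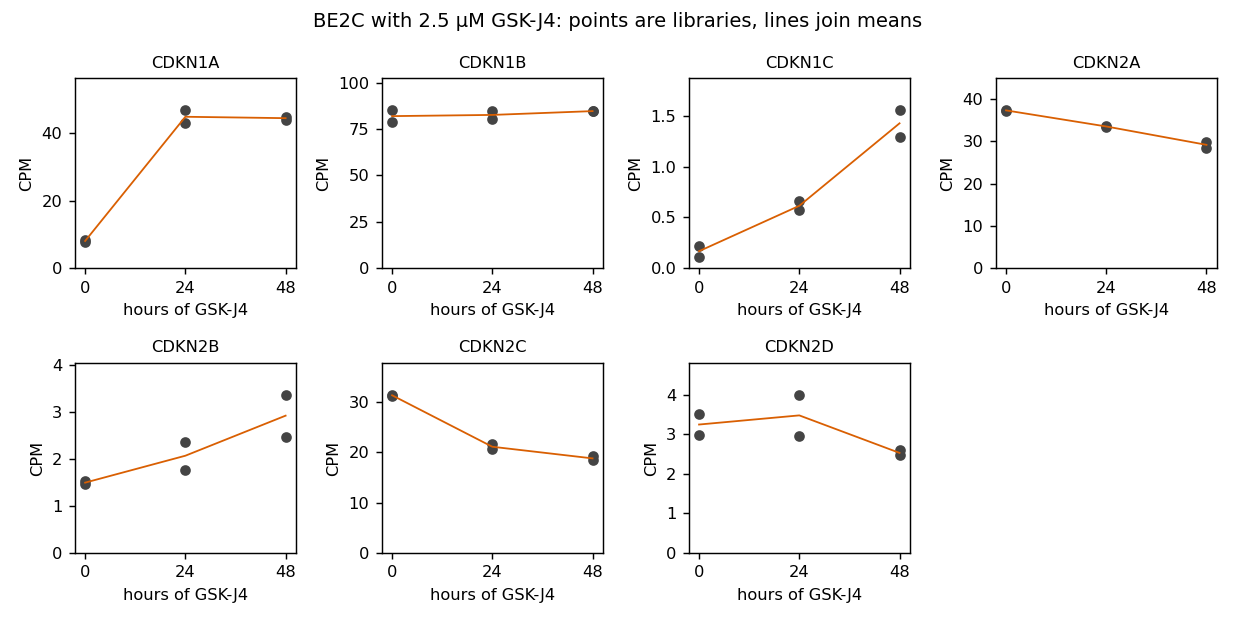
CPM of each CDK inhibitor gene in BE2C after 0, 24 and 48 h of 2.5 uM GSK-J4, each panel starting at 0, with 1 point per library and a line through the means. CDKN1A goes from 7.85 and 8.25 CPM at 0 h to 42.9 and 46.9 CPM at 24 h, CDKN2C and CDKN2A decline, and CDKN1B stays between 78.7 and 85.2 CPM.

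The genes around the inhibitors moved in both directions with GSK-J4. Of 17 p53 targets tested, 7 rose and 7 fell at 48 h, from PHLDA3 (log2 change 1.63), a p53-induced inhibitor of AKT, to SPATA18 (-3.68), and the list had a median of 0.07. At 24 h 5 rose and 7 fell, with the death receptor FAS at 2.25. MDM2 fell by 0.27 on the log2 scale at 48 h. Of 12 cyclin, CDK and pocket protein genes 4 rose and 7 fell at 48 h, with cyclin A2, CCNA2, the lowest (-1.15). The D-type cyclin CCND2 had 0 counts in both libraries at 0 h, 4 and 5 at 24 h and 26 and 48 at 48 h. CDK4 fell by 0.46 and CDK6 rose by 0.34 on the log2 scale. All 16 proliferation genes fell at 48 h, PLK1 (-2.44) the furthest and RRM2 (-0.20) the least, while at 24 h 14 fell and RRM2 rose by 0.25. Of 6 genes of p27 turnover and FOXO, FOXO1 rose most (1.69) and CKS1B, a cofactor of SKP2 in p27 degradation, fell most (-0.87), 2 rising and 4 falling at either time. SKP2, which targets p27 for degradation, fell by 0.57. Of 9 Polycomb and KDM6 genes 4 rose and 3 fell at either time, and KDM6B rose by 1.07 at 24 h and 1.58 at 48 h while EED, a core subunit of the PRC2 methyltransferase, fell by 0.62 at 48 h. Among 7 neighbours of the members' loci tested, 2 rose and 3 fell at 48 h, with KCNQ1OT1, the long RNA of the imprinted domain of CDKN1C, at 1.73.

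Markers of cell identity moved with GSK-J4 as well. Of 7 neuroblastoma markers 2 rose and 5 fell at 24 h, and 1 rose and 6 fell at 48 h, with a median of -0.54, TH at 0.14 and ISL1 at -1.17. Without MYCN the list summed to 1019 and 1035 CPM at 0 h, 910.1 and 920.5 at 24 h and 712 and 734.2 at 48 h. Of 3 markers of other cells tested, EPCAM, an epithelial adhesion gene, rose at both times (2.26 at 48 h, from 18 and 26 counts to 153 and 182), and CD14 fell at 48 h (-1.61, from 15 and 20 counts to 8 and 10). That list summed to 1.32 CPM in both libraries at 0 h, 1.48 and 1.77 at 24 h and 3.21 and 3.66 at 48 h, and PTPRC, CD3E and ALB had at most 3 counts in every library at 0 and 24 h. The part of these shifts in the members' changes was not tested.

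With palbociclib CDKN2C fell in all 4 lines and CDKN1A did too, though in NB1643 its call depended on single libraries and on the method. CDKN2D and CDKN1C moved in opposite directions in different lines. Since CHLA15 and CHLA20 received 300 nM and NB1643 and NB1691 3 uM, line and dose cannot be told apart across these pairs, and the values are set side by side. In CHLA15 1 of 6 members with enough counts rose and 4 fell, where 29.8% of all genes were called, and in CHLA20 the counts were also 1 and 4 (29.6% of all genes). In NB1643 none of 6 rose and 5 fell (39.9% of all genes), and in NB1691 1 of 7 rose and 4 fell (32.8%). The median log2 change of the members was -0.53, -0.43, -0.46 and -0.43 in CHLA15, CHLA20, NB1643 and NB1691, against medians over all genes between -0.0021 and 0.02.

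CDKN2C went from 60.8 and 60.6 to 46.8 and 42.8 CPM in CHLA15 and from 68.2 and 75.3 to 53.9 and 56.2 in CHLA20. In NB1643 it went from 124 and 127 to 48.6 and 48.0 CPM, and in NB1691 from 83.0 and 84.6 to 40.0 and 39.6. No treated library overlapped its untreated group. The log2 change was -0.44 ± 0.06 in CHLA15 (adjusted p = 1.35e-05), -0.38 ± 0.06 in CHLA20 (adjusted p = 4.81e-05), -1.37 ± 0.06 in NB1643 (adjusted p = 8.52e-13) and -1.07 ± 0.06 in NB1691 (adjusted p = 6.33e-11).

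CDKN1A went from 28.3 and 27.9 to 17.9 and 18.6 CPM in CHLA15 and from 26.1 and 28.4 to 19.3 and 20.0 in CHLA20. In NB1691 it fell from 176 and 183 to 94.9 and 91.1 CPM, and in NB1643 it read 37.9 and 34.9 untreated and 31.6 and 32.6 treated. The groups did not overlap in any line. The log2 change was -0.62 ± 0.06 in CHLA15 (adjusted p = 4.75e-07), -0.47 ± 0.06 in CHLA20 (adjusted p = 1.01e-05) and -0.95 ± 0.06 in NB1691 (adjusted p = 2.03e-10). In NB1643 it was -0.18 ± 0.06 (adjusted p = 0.0203), and this call was lost without palbociclib replicate 1 (-0.16), palbociclib replicate 2 (-0.20) or untreated replicate 1 (-0.12), and by DESeq2 (-0.16). It was also lost under upper-quartile scaling (-0.12, adjusted p = 0.0900), with no filter (-0.18, adjusted p = 0.0524) and with NB1643 fitted alone (-0.18, adjusted p = 0.0964).

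CDKN1B, in contrast, changed in 1 line only by the test. It read 276 and 272 CPM untreated and 276 and 264 treated in CHLA15, 251 and 257 untreated and 236 and 246 treated in CHLA20, and 155 and 151 untreated and 168 and 162 treated in NB1691. In NB1643 it fell from 150 and 179 to 112 and 114 CPM, a log2 change of -0.54 ± 0.06 (adjusted p = 1.56e-06). The 95% intervals in the other lines were -0.15 to 0.11 in CHLA15, -0.20 to 0.06 in CHLA20 and -0.02 to 0.24 in NB1691, and only in NB1691 did fitting the line alone bring a call (0.097, adjusted p = 0.016).

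CDKN1C fell in both CHLA lines, from 16.8 and 16.2 to 8.76 and 7.29 CPM in CHLA15 and from 14.6 and 18 to 7.14 and 8.95 in CHLA20. The log2 changes were -1.04 ± 0.11 (adjusted p = 1.37e-06) and -1.02 ± 0.11 (adjusted p = 1.63e-06). In NB1691 it rose from 4.62 and 4.28 to 6.71 and 6.30 CPM, a log2 change of 0.55 ± 0.13 (adjusted p = 0.00308). NB1643 showed 10.4 and 9.24 CPM untreated and 9.83 and 9.86 treated, which overlapped (95% interval of the log2 change -0.25 to 0.24).

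CDKN2D rose in CHLA15 from 13.3 and 14.2 to 27.2 and 25.6 CPM and in CHLA20 from 14.6 and 16 to 25.1 and 23.2. It fell in NB1643 from 8.59 and 7.86 to 6.41 and 6.27 CPM and in NB1691 from 12.6 and 13.6 to 7.26 and 6.42. In each line the groups were apart. The log2 change was 0.94 ± 0.08 in CHLA15 (adjusted p = 4.79e-08), 0.66 ± 0.08 in CHLA20 (adjusted p = 2.73e-06), -0.38 ± 0.09 in NB1643 (adjusted p = 0.00265) and -0.93 ± 0.09 in NB1691 (adjusted p = 1.3e-07). CDKN2D was the member that rose in CHLA15 and CHLA20, and CDKN1C the one that rose in NB1691.

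CDKN2A fell in the 3 lines where it was scarce. It went from 2.90 and 3.01 to 1.91 and 1.52 CPM in CHLA15, from 1.69 and 2.10 to 0.593 and 0.686 in CHLA20 and from 4.50 and 3.66 to 2.39 and 2.17 in NB1643. The log2 change was -0.78 ± 0.14 (adjusted p = 0.000237), -1.55 ± 0.19 (adjusted p = 3.44e-06) and -0.85 ± 0.13 (adjusted p = 2.38e-05). In NB1691, where it was abundant, it read 214 and 227 CPM untreated and 211 and 201 treated, a log2 change of -0.10 (95% interval -0.25 to 0.04, adjusted p = 0.281) that was called when NB1691 was fitted alone (-0.12, adjusted p = 0.00565). CDKN2B, measurable in NB1691 alone, went there from 114 and 110 to 83.4 and 83.2 CPM, a log2 change of -0.43 ± 0.07 (adjusted p = 0.000117).

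**Figure D4:**
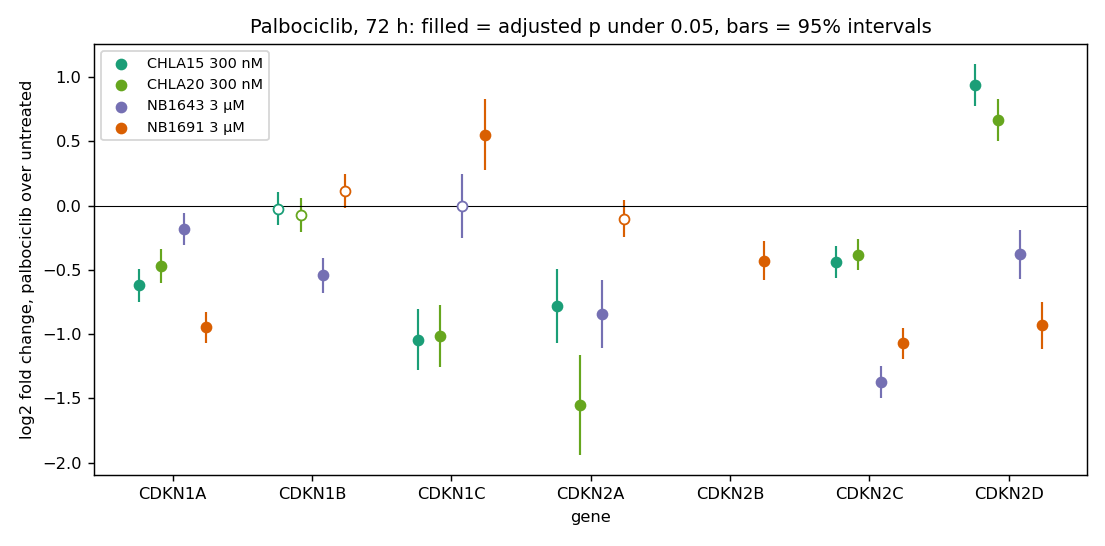
Log2 fold change of each CDK inhibitor gene after 72 h of palbociclib over untreated cells, with 95% intervals, for CHLA15 and CHLA20 (300 nM) and NB1643 and NB1691 (3 uM), filled where the adjusted p was under 0.05. CDKN2C lies below 0 in all 4 lines, CDKN2D lies above 0 in the CHLA lines and below it in the NB lines, and CDKN2B is drawn for NB1691 only.

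The response was compared between lines at the same dose, although untreated NB1691 and NB1643 differed in the CDK4 and CDK6 mRNA given above. Between NB1691 and NB1643, both at 3 uM, the change differed at 6 of 7 members, where 22.0% of all genes differed. The fall of CDKN1A was deeper in NB1691 by a log2 difference of -0.77 ± 0.08 (adjusted p = 1.89e-06), and so was that of CDKN2D, by -0.55 ± 0.13 (adjusted p = 0.00393). The changes of CDKN1B (0.65 ± 0.09, adjusted p = 3.33e-05), CDKN2A (0.74 ± 0.14, adjusted p = 0.000918), CDKN1C (0.56 ± 0.18, adjusted p = 0.0297) and CDKN2C (0.30 ± 0.08, adjusted p = 0.0128) were more positive in NB1691. The CDKN2C call was lost without NB1643 palbociclib replicate 2, NB1691 palbociclib replicate 1 or NB1691 untreated replicate 1 (0.28 to 0.29). The CDKN1C call was lost without either NB1643 palbociclib replicate (0.55 each), NB1643 untreated replicate 1 (0.48), NB1691 palbociclib replicate 1 (0.51) or either NB1691 untreated replicate (0.50 and 0.61). It was also lost under limma-voom, the test of the study (0.56, adjusted p = 0.0557). CDKN2B had too few counts in NB1643 to compare.

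Between CHLA20 and CHLA15, both at 300 nM, edgeR called none of the 6 members with enough counts, where 2.02% of all genes differed. CDKN2A came nearest, with a log2 difference of -0.77 ± 0.24 (unadjusted p = 0.00443, adjusted p = 0.107), and it was called by DESeq2 (-0.80, adjusted p = 0.0266) and without CHLA20 untreated replicate 1 (-0.95, adjusted p = 0.0358). CDKN2D (-0.28) had an unadjusted p of 0.0209. The 95% interval was -0.03 to 0.33 for CDKN1A, -0.24 to 0.14 for CDKN1B, -0.31 to 0.37 for CDKN1C, -0.12 to 0.23 for CDKN2C and -0.51 to -0.05 for CDKN2D. At unadjusted p under 0.05 there were 2 of these 6 members, and 3177 of the 22133 genes tested.

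The partners of the inhibitors also responded to palbociclib. CCND1, cyclin D1, rose by 1.01, 0.93, 0.80 and 0.89 on the log2 scale in CHLA15, CHLA20, NB1643 and NB1691. The 12 cyclin, CDK and pocket protein genes gave 3 higher and 4 lower in CHLA15, 2 and 7 in CHLA20, 2 and 7 in NB1643, and 3 and 5 in NB1691, and the lowest called gene was RBL2 in CHLA15 (-0.47), CDK2 in CHLA20 (-0.75) and CCNA2 in NB1643 (-4.17) and NB1691 (-3.03). Of 18 p53 targets 4 rose and 8 fell in CHLA15, 3 and 6 in CHLA20, 2 and 8 in NB1643, and 1 and 11 in NB1691. TP53INP1 rose most among them in each line (0.60, 0.81, 1.43 and 0.39), FAS fell most in CHLA15 (-1.42), CHLA20 (-1.03) and NB1691 (-1.22), and SPATA18 in NB1643 (-0.67). MDM2 fell by 0.54 in NB1691 and did not pass the test in the other lines. SKP2 fell by 0.54, 0.77, 0.70 and 0.79 on the log2 scale in the 4 lines, and the 6 genes of p27 turnover and FOXO gave 1 higher (FOXO3) in each line and 1, 4, 5 and 5 lower, with CKS1B (-1.13 and -1.16) the lowest in the NB lines. Of the 16 proliferation genes 10 fell in CHLA15 and all 16 in each of the other lines, with list medians of -0.24, -0.57, -2.60 and -2.18. EZH2, the methyltransferase of PRC2, fell by 0.39, 0.50, 1.5 and 1.48 on the log2 scale and was the lowest of the 9 Polycomb and KDM6 genes, of which 1, 2, 2 and 1 rose and 1, 3, 3 and 4 fell. Of 10 neighbours of the members' loci 1, 1, 2 and 2 rose and 3, 3, 5 and 2 fell. Of 7 neuroblastoma markers 2, 2, 4 and 4 rose and 2, 1, 1 and 0 fell, and of 5 tested markers of other cells 1 fell, CDH5 in CHLA15 (-1.42). The part of these shifts in the members' changes was not tested.

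The libraries labelled siKDM6B showed no called change at any of the 7 members. edgeR called 0% of the 17472 genes tested in this comparison. At an unadjusted p under 0.05 there were 1615 genes, DESeq2 called 157 and limma-voom 0. The 3 siRNAs, with 1 library each, were fitted as 1 group, and they differed from each other more than the 2 siCtrl libraries did. Differences between siRNAs therefore counted as spread. The common coefficient of variation of this fit was 0.35, against 0.0219 for GSK-J4 and 0.0523 for palbociclib. The 95% intervals of the log2 changes were wide, from -0.68 to 0.42 for CDKN2A to -1.93 to 2.07 for CDKN1A. The lack of calls thus does not show that a member was unchanged.

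CDKN1A read 2.59 and 3.01 CPM with siCtrl, 6.03 with N1, 2.18 with N2 and 0.622 with N33. N1 lay above and the other siRNAs below both controls. The log2 change over the 3 was 0.07 ± 0.83 (adjusted p = 0.986), and -0.99 without N1.

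CDKN1C, at 24 and 29 counts with siCtrl, spread in the same order, with 1.09 CPM in N1, 0.275 in N2 and 0.172 in N33 against 0.597 and 0.619. CDKN2C read 38.7 and 37.1 CPM with siCtrl, 30.9 with N1, 25.6 with N2 and 8.94 with N33. All 3 siRNAs lay below both controls, and the log2 change was -0.79 ± 0.49 (adjusted p = 0.655).

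CDKN2D read 4.8 and 4.72 CPM with siCtrl, 5.34 with N1, 1.43 with N2 and 5.79 with N33. N2 lay far below both controls, while N1 and N33 lay above them by less. CDKN1B read 108 and 106 CPM with siCtrl and 141, 136 and 102 with N1, N2 and N33, and CDKN2A 40.4 and 39.4 with siCtrl and 33.7, 43.1 and 32.4. CDKN2B read 2.54 and 2.99 CPM with siCtrl and 3.21, 2.40 and 4.2 with N1, N2 and N33, which overlapped. Of the 8 to 17 tested genes in each list of partners, p53 targets, Polycomb genes, proliferation genes and locus neighbours, and of the 6 of p27 turnover and FOXO, none was called by edgeR. Neither was any of the 7 neuroblastoma markers or the 3 tested markers of other cells. The median log2 change of the 16 proliferation genes was -0.76, against 0.04 over all genes tested. The medians of the other lists ran from -0.21 for the cyclin, CDK and pocket protein genes to 0.17 for the Polycomb and KDM6 genes.

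**Figure D5:**
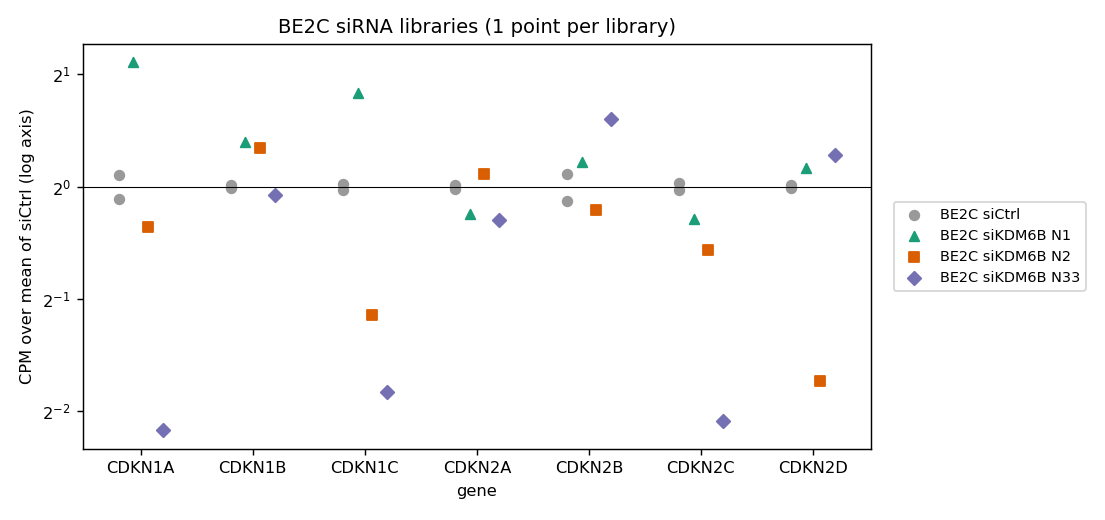
CPM of each CDK inhibitor gene in the BE2C siRNA libraries divided by the mean of the 2 siCtrl libraries, on a log axis, with 1 point per library and the siRNA given by colour. The N33 library is lowest for CDKN1A and CDKN2C, N2 for CDKN2D, and the 2 siCtrl points stay close to 1 throughout.

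The genes whose levels followed a member most closely were listed by Pearson's r of log2 CPM, up to 3 for each member, as a description without a test. Over the 16 palbociclib and untreated libraries, differences between the 4 lines dominate and libraries of a line are not independent. There CDKN1A was followed by FAS (0.993), SLC39A14 (0.991) and TRIP10 (0.988). CDKN2A was followed by TRIM56, DLG1 and TIAM2 (0.9970 to 0.9988) and CDKN2B by CD70, IFIH1 and CXCL5 (each at 0.9999 or more). CDKN1B was closest to RAC1, FAR1 and KDELC1 (0.977 to 0.980) and CDKN1C to PDE8B, WNT4 and TMIGD2 (0.916 to 0.946). CDKN2C was closest to C21orf58, NUP62CL and LSM6 (0.914 to 0.948) and CDKN2D to GPR3, PGBD1 and PDCL3 (0.942 to 0.965). Among the members themselves the highest r was that of CDKN2A with CDKN2B (0.991), followed by CDKN1A with CDKN2A (0.957).

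The same listing over the 11 BE2C libraries joins 2 separately scaled experiments, and CDKN1C was left out there because its mean was under 1 CPM. CDKN1A was closest to CNTN2, HK2 and CYP1A1 (0.981 to 0.989), CDKN1B to RP11-588K22.2, PRKACB and LIN9 (0.9752 to 0.989) and CDKN2A to MED4 and LMO3 (0.978 and 0.976). CDKN2B was closest to EGR1, CXorf23 and ZMYM6 (0.931 to 0.942), CDKN2C to FTSJ1, HAGHL and PRDX3 (0.986 to 0.991) and CDKN2D to YIF1B, ERI1 and DYNC1I2 (0.944 to 0.974).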

How the data were processed

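Total RNA was sequenced by the authors as paired-end 100-base reads on Illumina instruments. The study's methods describe cultured cells as the source, while the labels' extraction note names xenograft tissue, a discrepancy not settled here. The deposited values are raw read counts per gene, made by the authors by alignment to GRCh37 and HTSeq counting, with STAR 2.5.3a named in the submitters' processing notes. The methods name a mouse Gencode release as annotation, although the listed symbols are human. Between 5.1% and 16.8% of reads per library fell on no gene and between 2.14% and 3.46% were ambiguous, and both stayed out of library sizes.

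The 22 BE2C files were taken as 2 files per library and summed into 11 libraries. Files of a library differed by a chi-square per degree of freedom of 1.48 to 1.65. Files of different libraries of a group differed by 1.93 at 0 h, 2.23 at 24 h and 2.66 at 48 h of GSK-J4, and by 4.04 with siCtrl. Libraries of different siKDM6B siRNAs differed by 107 to 171. The 16 other files are 1 library each.

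Each experiment was fitted on its whole table in R 4.3.3 with edgeR 4.0.16 (filter by expression, trimmed-mean scaling, quasi-likelihood test, Benjamini-Hochberg adjustment over all genes tested, call at an adjusted p under 0.05), without a replicate block, and all groups of an experiment sharing 1 estimate of the spread. The study used limma-voom, which was run as an alternative (limma 3.58.1), beside DESeq2 1.42.0, upper-quartile scaling, no filter, the compared groups alone, each file as a sample, each library left out and a replicate block. The fits were run on simulated data with 200 changed genes, and recovery of these was required for the GSK-J4 and palbociclib designs but not for siRNA. Fold changes are given with model standard errors and 95% intervals, and none where no library of either group had more than 10 counts. Levels between genes are CPM per kb of the Ensembl canonical transcript in Gencode v44 lifted to GRCh37. The Poisson interval and the floor of 3 counts cover counting error only, while the 95% intervals of log2 changes also include the spread between libraries.

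All 7 members are named. Lists of cyclin, CDK and pocket protein partners, p53 targets, p27 turnover and FOXO, Polycomb and KDM6 genes, proliferation genes, locus neighbours, neuroblastoma markers and markers of other cells are described by counts and, by name, mainly the called genes at the extremes, together with a fixed set including MDM2, KDM6B, EZH2, CDK4, CDK6, CCND1, SKP2 and MYCN. The closest genes in pattern were sought among genes with a mean of at least 1 CPM, with 2 added to CPM before the log. A marker and a gene close in pattern are not reported here. The members and lists were chosen with earlier results of these data known.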

Additional observations from a re-analysis of the deposited data

Results flagged for a closer look

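Differences in response between lines were flagged. Between NB1691 and NB1643, at the same dose of palbociclib, the test of the difference itself passed for CDKN1A (log2 difference -0.77), CDKN1B (0.65), CDKN1C (0.56), CDKN2A (0.74), CDKN2C (0.30) and CDKN2D (-0.55), where 22.0% of all genes differed. The CDKN1C call was lost in 7 of 14 alternative settings and the CDKN2C call in 3 of 14.

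CDKN1C fell in CHLA15 (-1.04) and CHLA20 (-1.02) and rose in NB1691 (0.55), while in NB1643 it did not pass the test. CDKN2D rose in CHLA15 (0.94) and CHLA20 (0.66) and fell in NB1643 (-0.38) and NB1691 (-0.93), in every library. The difference between NB1691 and the CHLA lines for CDKN1C, and between the NB and the CHLA lines for CDKN2D, was not tested, because the dose differed with the line.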

How the results depend on the processing

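Of 779 recomputed log2 changes of members that were called, none changed sign and 42 were no longer called, and of the others 17 became called and 31 changed sign. The numbers of members called moved by over 1.5 times for GSK-J4 48 h against 24 h (5 as reported, 3 by DESeq2, 3 to 4 with a library left out) and for CHLA20 against CHLA15 under palbociclib (0 as reported, 1 by DESeq2, 1 with no filter, 0 to 1 with a library left out). In the other comparisons they did not, and the cause of these moves was not tested. Over all genes, siKDM6B gave 0 calls as reported, 157 by DESeq2, 84 with no filter and 2354 with each file as a sample, a setting that counts repeated files as replicates. The CHLA20 against CHLA15 difference gave 446 as reported, 831 by DESeq2, 846 with no filter 239 with these lines alone and 50 to 1305 with a library left out, and untreated CHLA20 against CHLA15 gave 2736 as reported and 1130 to 4012 with a library left out.

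Signs changed only where a member was not called. Under limma-voom CDKN1A with siKDM6B went to -0.48. DESeq2 gave -0.0012 for CDKN1B at 24 h of GSK-J4, 0.024 for CDKN1C in NB1643 and -0.0036 for CDKN1C between CHLA20 and CHLA15. Upper-quartile scaling gave 0.049 for CDKN1A from 24 to 48 h and 0.054 for CDKN1C in NB1643, and no filter gave 0.0022 for the latter. With a library left out, log2 changes with siKDM6B spanned -0.99 to 0.55 for CDKN1A, -1.42 to 0.15 for CDKN1C and -0.49 to 0.23 for CDKN2D. With GSK-J4 they spanned -0.043 to 0.073 for CDKN1B and -0.13 to 0.31 for CDKN2D at 24 h, -0.016 to 0.10 for CDKN1B at 48 h, and -0.085 to 0.043 for CDKN1A and -0.0074 to 0.063 for CDKN1B from 24 to 48 h. With palbociclib they spanned -0.052 to 0.0018 for CDKN1B in CHLA15, -0.10 to 0.094 for CDKN1C in NB1643, and -0.16 to 0.17 for CDKN1C and -0.03 to 0.12 for CDKN2C between CHLA20 and CHLA15. Between the untreated CHLA lines they spanned -0.10 to 0.022 for CDKN1A and -0.17 to 0.13 for CDKN1C.

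Replicate numbers did not pair the samples, with correlations of deviations of 0.0548, 0.0159 and 0.00249 for GSK-J4 and of 0.103, 0.0457, 0.0316 and -0.0394 for palbociclib. With a replicate block 5 members were called at 24 h (CDKN2B added), 6 at 48 h, 5 from 24 to 48 h, 5 in each palbociclib line, 0 and 6 in the differences between lines and 31 instead of 33 over the pairs of untreated lines, which lost CDKN2C between CHLA20 and CHLA15 (0.16, adjusted p = 0.232) and CDKN2D between NB1691 and CHLA20 (-0.22, adjusted p = 0.112). No paired analysis was possible for siKDM6B because each siRNA has 1 library. Depth limited CDKN2B in CHLA15, CHLA20 and NB1643 and CDKN1C in BE2C.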
